A study of Mus musculus with 3 samples.

Results

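The insulin-like growth factor 1 axis was followed here through 9 genes: the ligand Igf1, the receptors Igf1r and Igf2r, and the binding proteins Igfbp2, Igfbp3, Igfbp4, Igfbp5, Igfbp6 and Igfbp7. They were chosen by gene symbol, and all 9 have a row among the 27040 genes that the 3 single-cell count matrices share. The study sorted mesenchymal cells that carry reporters for Cxcl12 or Col1a1 from mouse mandibular molars and sequenced 1 library from each of 3 genotypes. The series title names CXCL12+ mesenchymal cells of the molar as its subject.

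The Cxcl12-GFP P6 library came from Cxcl12-GFP/+ mice, in which GFP reads out the Cxcl12 gene, and held their GFP+ cells at postnatal day 6. The Cxcl12-creER P6 library held tdTomato+ cells of Cxcl12-creER; R26R(tdTomato/+) mice of the same age, in which a tamoxifen-dependent Cre made by Cxcl12-expressing cells switches on tdTomato permanently. The Col1a1-GFP_Cxcl12-creER P25 library held cells of Col1a1-GFP; Cxcl12-creER; R26R(tdTomato/+) mice at postnatal day 25 that were GFP+, tdTomato+ or both, Col1a1-GFP being a reporter of collagen-producing cells. The time of tamoxifen is not given in the sources used here, nor is the number of mice pooled for a library. Age, genotype and gate differ together between the P25 library and either P6 library, and with 1 library per group they cannot be told apart. In Cxcl12-creER P6, 82.3% of cell barcodes had a first 8 bases that also start a barcode of the P25 library, against 21.0% in Cxcl12-GFP P6. The labels give 3′ v3 for every library, and whether the chemistry of Cxcl12-GFP P6 differed was not tested. No difference below therefore has a replicate check or a p-value, and every interval is a 95% interval that covers counting error only.

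IGF1 is made in the liver under the control of growth hormone and also locally in many connective tissues. It signals through the tyrosine kinase receptor encoded by Igf1r, while the product of Igf2r, which also carries mannose 6-phosphate tagged enzymes, takes up and degrades IGF2 and does not bind IGF1 well. Secreted binding proteins hold the ligands in the circulation and in the matrix, where proteases such as those encoded by Pappa and Htra1 release them, and IGF signalling is a known growth signal for tooth and bone.

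In GRCm38 (GENCODE M21) Igf1 spans chr10:87858265-87937042 on the plus strand, and Igf1r spans chr7:67952827-68233668 on the plus strand. Igf2r lies at chr17:12682406-12769664 on the minus strand, opposite the RNA gene Airn, and Igf1 and Igfbp7 also have genes on the opposite strand (Igf1os, and Polr2b with Gm34648). Whether the counting used strand is not given in the sources used here, and a part of these opposite genes in the counts was not tested. Igfbp2 at chr1:72824503-72852474 and Igfbp5 at chr1:72857932-72874884 are neighbours on opposite strands with 5457 bases and 0 annotated genes between them.

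The sequences before the starts of Igf1, Igf1r, Igfbp4 and Igfbp5, the ligand, its signalling receptor and 2 of the binding proteins described below, are shown to let their composition be compared. Each line holds the 120 bases before the start that RefSeq gives, from GRCm38.p6, 5′ to 3′ on the gene's strand: Igf1 at chr10:87860991-87861110 (plus), Igf1r at chr7:67952137-67952256 (plus), Igfbp4 at chr11:99041124-99041243 (plus) and Igfbp5 at chr1:72874866-72874985 (minus). Capitals mark a TATAAA in the last 50 bases on the gene's strand, a CCAAT on either strand or a GGGCGG on either strand.
Igf1: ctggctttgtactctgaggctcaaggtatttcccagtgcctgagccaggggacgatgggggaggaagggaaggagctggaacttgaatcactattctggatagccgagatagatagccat
Igf1r: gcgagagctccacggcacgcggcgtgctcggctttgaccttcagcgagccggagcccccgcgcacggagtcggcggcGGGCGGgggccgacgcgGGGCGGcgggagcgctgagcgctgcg
Igfbp4: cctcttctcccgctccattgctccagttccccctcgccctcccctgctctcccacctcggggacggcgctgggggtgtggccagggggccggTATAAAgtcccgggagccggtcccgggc
Igfbp5: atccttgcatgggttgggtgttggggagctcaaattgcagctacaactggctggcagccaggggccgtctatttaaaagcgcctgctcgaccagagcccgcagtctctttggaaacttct
The 250 bases before the Igf1r start were 77.6% G or C with 42 CG dinucleotides, and those before the Igf1 start were 52.8% G or C with 5. The Igf1 window lies inside the GENCODE span given above, so it is not upstream of the first base of that span. Over all 32851 starts the medians were 52.4% and 6. Among the members TATAAA was found before Igfbp4 alone, 28 bases before the start, and 2.63% of all starts had it in that window. GGGCGG stood in the 250-base window of 32.7% of starts and CCAAT in that of 33.8%, both strands counted. These matches describe the letters and nothing else.

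The matrices held 7528 barcodes with 68891094 unique molecular identifiers (UMIs, 1 per captured RNA molecule) for Cxcl12-GFP P6, 1691 with 6596256 for Cxcl12-creER P6 and 6693 with 99277096 for P25. After filtering, 7065, 1121 and 5401 cells remained, with a median of 8139, 1459 and 14729 UMIs per cell. The Cxcl12-creER P6 library was thus the smallest and shallowest. Clustering was done within each library without the 9 genes, and marker lists gave the clusters their names. The P25 library gave 1884 follicle or ligament-like, 836 pulp-like, 692 osteoblast-like and 177 odontoblast-like cells, and 19.1%, 41.2% and 14.7% of cells stayed unnamed in Cxcl12-GFP P6, Cxcl12-creER P6 and P25. The labels call the cells mesenchymal, yet the P25 library also held 284 macrophage-like, 188 neutrophil-like, 111 epithelium-like, 90 endothelial-like and 61 lymphocyte-like cells. Cxcl12-creER P6 held 130 epithelium-like, 47 macrophage-like, 19 endothelial-like and 8 neutrophil-like cells. Cxcl12-GFP P6 held 80 endothelial-like and 10 epithelium-like cells. Col2a1, a cartilage collagen, was among the leading genes of every osteoblast-like cluster of the P25 library. In Cxcl12-GFP P6, whose labels name no Cre allele, the matrix lists 980 UMIs of an iCreER sequence, 328 of them in pulp-like cluster 0, and 1634 UMIs of a tdTomato sequence. In Cxcl12-creER P6, sorted for tdTomato, the matrix lists 235 tdTomato UMIs in 159 of its 1691 barcodes. Whether the other cells carried the mark was not tested. The Cxcl12-creER P6 and P25 libraries shared 5 cell barcodes, Cxcl12-GFP P6 and P25 shared 1 and the P6 libraries 0.

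Levels below are CPM, a class's summed UMIs for a gene scaled to a fixed total so that classes of unlike size can be compared. A 3′ count does not depend on transcript length in a simple way, so a level is compared between classes and not between genes. A ratio was called when it reached 2-fold and the class with the higher level had 20 CPM and 20 UMIs or more, and log2 ratios were taken after adding 1 CPM.

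**Figure D1:**
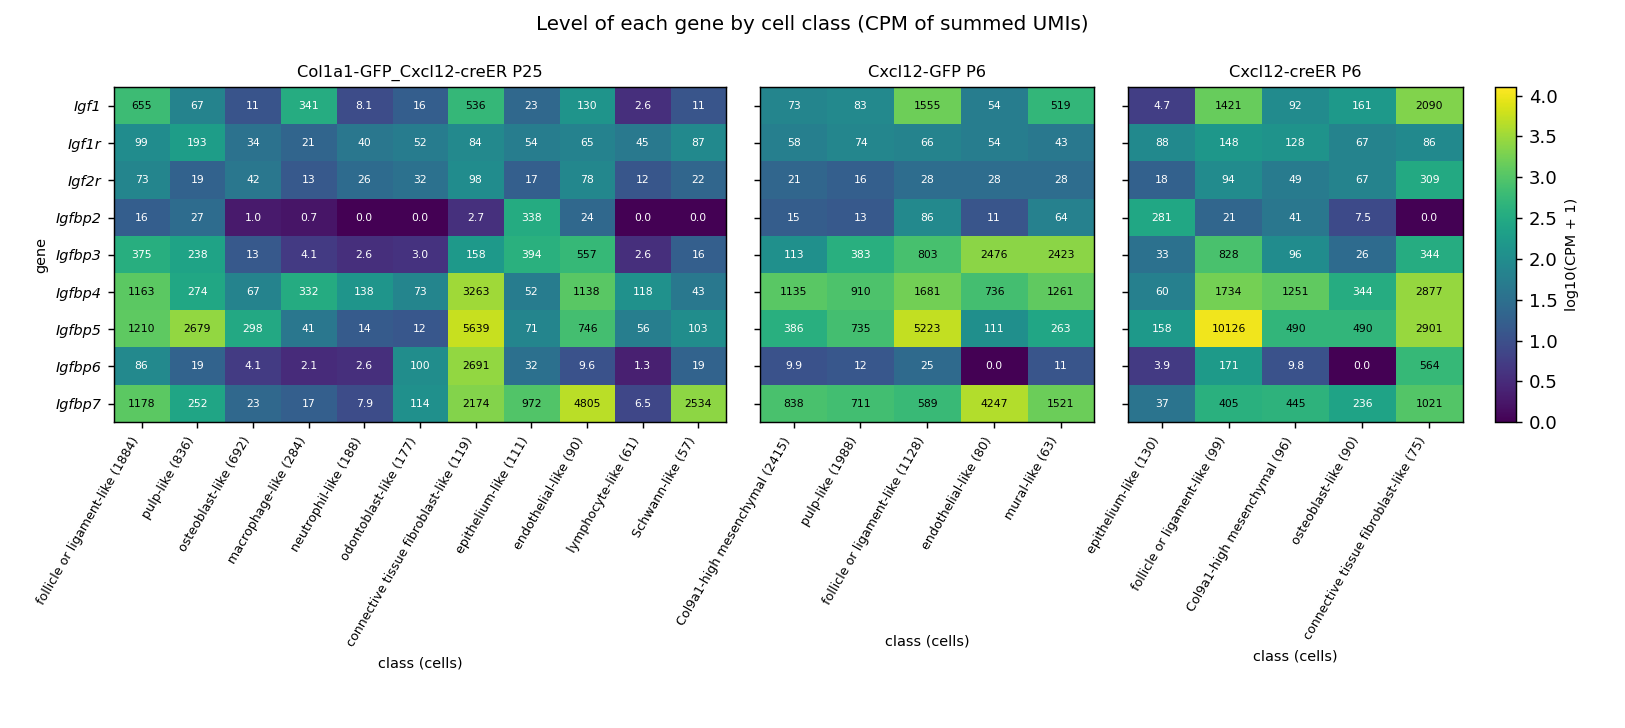
CPM of each of the 9 genes (rows) in every class with at least 50 cells (columns, cell number in brackets), 1 panel per library, coloured by log10(CPM + 1). In the P25 panel Igf1 is brightest in follicle or ligament-like cells (655 CPM), Igf1r in pulp-like cells (193 CPM) and Igfbp7 in endothelial-like cells (4805 CPM).

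Igf1, the ligand, was highest at P25 in follicle or ligament-like cells among the classes of at least 50 cells, at 655 CPM (647 to 664). Connective tissue fibroblast-like cells followed with 536 CPM (499 to 575) and macrophage-like cells with 341 CPM (323 to 359). Endothelial-like cells had 129.9 CPM (109.9 to 153) and pulp-like cells 67.1 CPM (62.1 to 72.5). As class levels, the ligand thus stood higher in follicle or ligament-like, connective tissue fibroblast-like and macrophage-like cells than in pulp-like cells. This did not hold for every cluster of these classes, as given below. Below these came epithelium-like (23.0 CPM), odontoblast-like (16.0), Schwann-like (10.9), osteoblast-like (10.7), neutrophil-like (8.09) and lymphocyte-like cells (2.58 CPM, from 2 UMIs), and each of these overlapped the next in its interval. Osteoblast-like cells (9.10 to 12.4) thus overlapped neutrophil-like cells (5.73 to 11.1), while odontoblast-like cells (12.2 to 20.6) lay above them. Among smaller classes, 29 bone marrow stromal-like cells had 1277 CPM (1151 to 1414) and 43 mural-like cells 324 CPM (269.5 to 387).

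After thinning each cell to 1000 UMIs, 32.0% of follicle or ligament-like cells held an Igf1 UMI, with an interval of 29.9 to 34.2 (72.5% before thinning, median 16553 UMIs per cell). The thinned share was 26.8% in macrophage-like cells (77.8% before) and 7.30% in pulp-like cells (36.5% before, median 10815.5 UMIs). Neutrophil-like cells gave 1.06% with an interval of 0.129 to 3.79 (9.04% before, median 25342 UMIs), and 0.579% of osteoblast-like cells held an Igf1 UMI (8.24% before, median 20011.5 UMIs). The osteoblast-like share was thus not above that of neutrophil-like cells, whereas the pulp-like share was. Free RNA was not measured, and neutrophil-like cluster 17 (118 cells) also had Acp5 and Cd74 among its leading genes.

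Within the follicle or ligament-like class Igf1 was uneven. Cluster 1, led by Sfrp2, Acta2 and Tagln, had 1814 CPM and cluster 9, led by Aspn, Ostn and Gdf10, had 982 CPM. Cluster 2 had 532 CPM, cluster 6 had 256 CPM and cluster 0, led by Aspn, Tnn and Mgp, had 66.3 CPM, a level close to that of pulp-like cells. Acta2 and Tagln are contractile genes that mural cells also use, and the 8 mural markers summed to 541 CPM in this class and 117 CPM in the pulp-like class with 0 of 8 at zero in both, whose part in the Igf1 level was not tested. Unnamed cluster 8, led by Mmp13 and S100b, had 1173 CPM. The macrophage-like clusters differed as well, with 497 and 292 CPM in clusters 21 and 13, both led by C1q genes, and 5.65 CPM in cluster 30, led by Cd74 and class II genes.

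**Figure D2:**
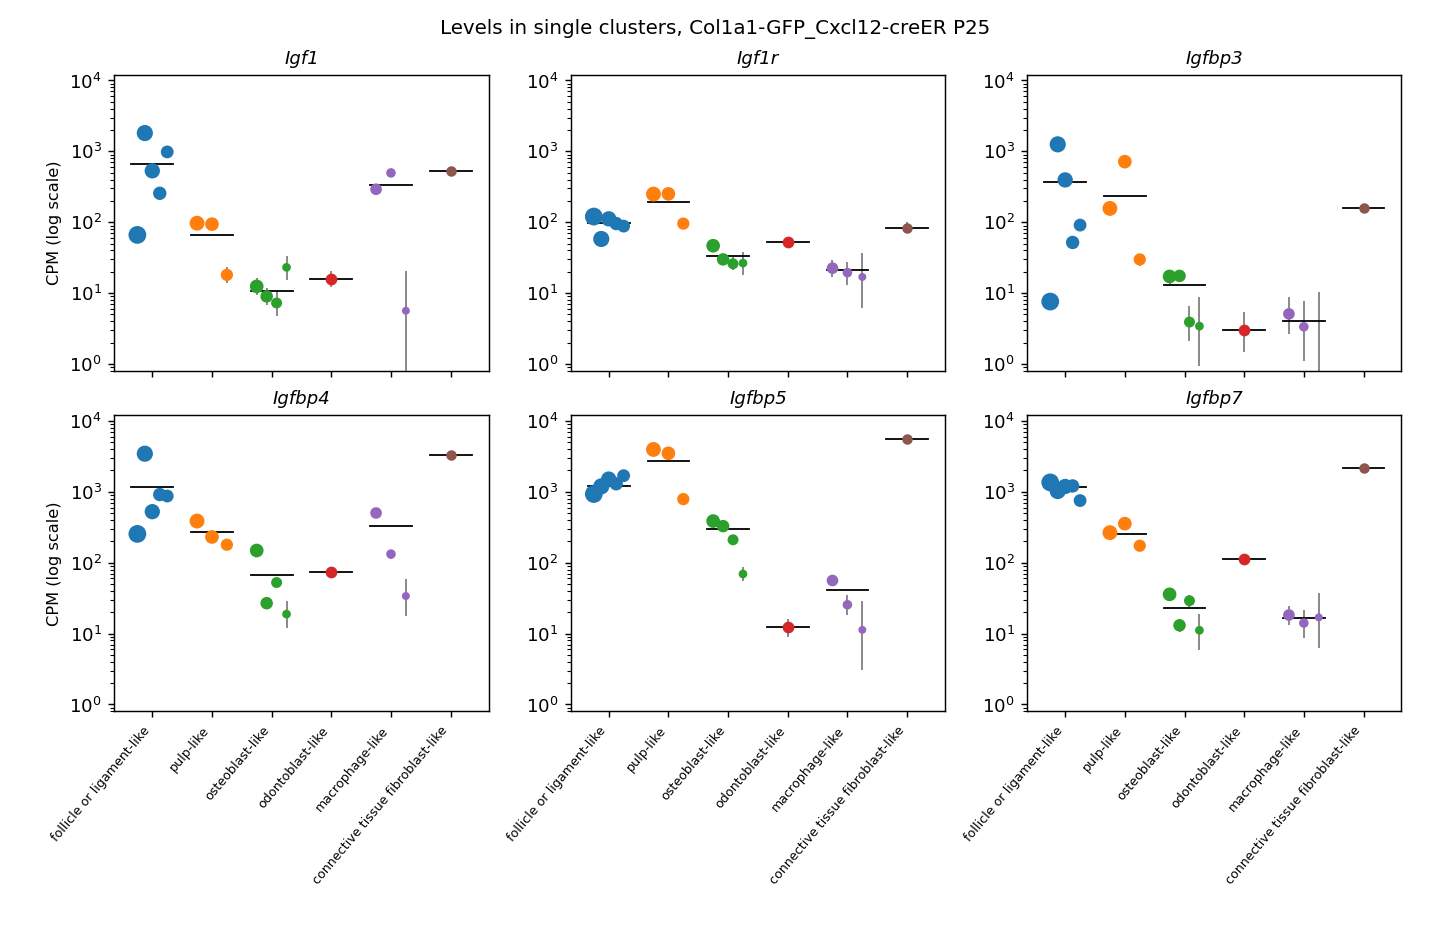
CPM on a log axis of Igf1, Igf1r, Igfbp3, Igfbp4, Igfbp5 and Igfbp7 in each single cluster (point, area by cell number; grey bar, Poisson interval) of 6 classes of the P25 library, with the class level as a black line. Igf1 and Igfbp3 spread widely over the follicle or ligament-like clusters (Igfbp3 from 7.61 to 1257 CPM), while Igf1r and Igfbp7 spread less.

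At P6 the ligand had the same leading class among the named ones in Cxcl12-GFP P6, where follicle or ligament-like cells had 1555 CPM (1532 to 1578), and 1705 and 1337 CPM in clusters 4 and 8. Igf1 was among the leading genes of cluster 4 and also of unnamed cluster 6 (472 cells), led by Mmp13 and Acta2. Mural-like cells had 519 CPM (460.0 to 584), pulp-like cells 83.4 CPM (78.8 to 88.2), Col9a1-high mesenchymal cells 72.6 CPM (68.9 to 76.5) and endothelial-like cells 54.0 CPM (38.4 to 73.9). The connective tissue fibroblast-like class came first in Cxcl12-creER P6, with 2089.7 CPM (1927 to 2263), before the follicle or ligament-like class with 1421 CPM (1331 to 1514). In that class 16 cells of cluster 24, with a median of 22089.5 UMIs per cell, gave 92.1% of the Igf1 UMIs. Osteoblast-like cells had 161 CPM (116 to 217), with 635 CPM in cluster 8 and 9.87 CPM in cluster 9, and epithelium-like cells had 4.68 CPM (1.72 to 10.2).

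Igf1r, the signalling receptor, was detected in every P25 class and was highest in pulp-like cells, at 193 CPM (185 to 202). Clusters 3 and 5, both led by Apod, had 249.8 and 252 CPM, and cluster 11, led by Ambn and Crabp1, had 95.7 CPM. Follicle or ligament-like cells had 98.9 CPM (95.5 to 102). From there each class overlapped the next down to neutrophil-like cells at 40.5 CPM and osteoblast-like cells at 33.6 CPM (30.8 to 36.6). Macrophage-like cells at 21.0 CPM (16.8 to 25.8) were the lowest and lay apart from the class above. The receptor thus ran in another order than its ligand, with pulp-like cells first for Igf1r and behind 4 other classes for Igf1. The thinned share of cells with an Igf1r UMI was 18.5% in pulp-like cells (80.6% before), 10.3% in follicle or ligament-like cells (70.4% before) and 5.85% in neutrophil-like cells (94 of 188 cells before). In Cxcl12-GFP P6 the classes lay closer together, from 43.0 CPM in mural-like to 74.5 CPM (70.2 to 79.0) in pulp-like cells, and the level in follicle or ligament-like cells, 66.3 CPM (61.6 to 71.3), overlapped the pulp-like one. In Cxcl12-creER P6 it ran from 67.4 CPM in osteoblast-like to 148 CPM (120.2 to 180.5) in the follicle or ligament-like class.

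Igf2r, the clearance receptor, was highest at P25 in connective tissue fibroblast-like cells at 97.8 CPM (82.5 to 115), endothelial-like cells at 77.6 CPM (62.3 to 95.5) and follicle or ligament-like cells at 73.4 CPM (70.4 to 76.4). Osteoblast-like cells had 41.7 CPM (38.5 to 45.0), odontoblast-like cells 32.3 CPM and pulp-like cells 18.7 CPM (16.1 to 21.6). Pulp-like cells were therefore at the high end for one receptor and near the low end for the other. In Cxcl12-GFP P6 the range over classes was 16.5 CPM (pulp-like) to 28.0 CPM (mural-like), and in Cxcl12-creER P6 it was 18.0 CPM (epithelium-like) to 309 CPM (249 to 380.2, connective tissue fibroblast-like).

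Igfbp2, a binding protein that carries an integrin-binding motif, was highest at P25 in epithelium-like cells, with 338 CPM (316 to 361). Pulp-like cells had 26.7 CPM (23.6 to 30.1), endothelial-like cells 23.5 CPM (15.5 to 34.3) and follicle or ligament-like cells 16.0 CPM (14.6 to 17.4). Odontoblast-like and neutrophil-like cells had 0 UMIs, which allows up to 0.813 and 0.639 CPM. In Cxcl12-creER P6 the epithelium-like class had 281 CPM (253 to 312), and this came from its keratin-led cluster 12 with 3277 CPM, since ameloblast-led cluster 1 had 0.854 CPM. Follicle or ligament-like cells reached 85.5 CPM (80.2 to 91.1) in Cxcl12-GFP P6. The 10 epithelium-like cells named in that library, led by Amelx and Odam, had 1596 CPM (1375 to 1842).

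Igfbp3, the main carrier of IGFs in serum, was highest in vessel classes among the named classes of at least 50 cells in the P25 and Cxcl12-GFP P6 libraries. At P25 endothelial-like cells had 557 CPM (515 to 602), epithelium-like cells 394 CPM (370.3 to 419), follicle or ligament-like cells 375 CPM (368 to 381) and pulp-like cells 238 CPM (228 to 248). In Cxcl12-GFP P6 endothelial-like cells had 2476 CPM (2363 to 2594) and mural-like cells 2423 CPM (2293 to 2558), but unnamed cluster 9, led by Thbs4 and Sfrp4, had 4199.8 CPM (4124 to 4277) and unnamed cluster 6, led by Mmp13 and Acta2, 2476 CPM (2434 to 2520). Osteoblast-like cells at P25 had 13.2 CPM, and macrophage-like, odontoblast-like and neutrophil-like cells between 2.56 and 4.05 CPM. The mesenchymal levels at P25 were uneven between clusters: 1257 CPM in follicle or ligament-like cluster 1 against 7.61 CPM in cluster 0, and 716 CPM in pulp-like cluster 5 against 29.9 CPM in cluster 11. In Cxcl12-creER P6 the follicle or ligament-like class had 828 CPM, with 12352 CPM in the 21 cells of cluster 20 (median 828 UMIs per cell) and 727 CPM in cluster 24, which gave 52.4% of the UMIs.

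Igfbp4, an IGF inhibitor that the pappalysin protease cleaves, was highest at P25 in connective tissue fibroblast-like cells at 3263 CPM (3171 to 3356), apart from 5731 CPM (5459 to 6013) in 29 bone marrow stromal-like cells. Follicle or ligament-like and endothelial-like cells overlapped at 1163 CPM (1151 to 1175) and 1138 CPM (1077 to 1202). Macrophage-like cells had 332 CPM (315 to 349.6), pulp-like cells 274 CPM (264 to 285) and the osteoblast-like class 67.5 CPM (63.4 to 71.7). Neutrophil-like cells had 138 CPM, so the odontoblast-like (73.2 CPM), osteoblast-like and epithelium-like (51.8 CPM) levels were below that of a blood cell class. Cluster 1 of the follicle or ligament-like class, which led for Igf1 and Igfbp3, led for this gene too, with 3449 CPM against 255 CPM in cluster 0.

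Igfbp5, which binds matrix and is known in bone and muscle, had its highest P25 levels in connective tissue fibroblast-like cells at 5639 CPM (5519 to 5762) and, in the 29 bone marrow stromal-like cells, at 6325 CPM (6038 to 6621). Pulp-like cells came next at 2679 CPM (2647 to 2712), ahead of follicle or ligament-like cells at 1210.2 CPM (1198 to 1222) and the osteoblast-like class at 298 CPM (289 to 306). Odontoblast-like cells had 12.2 CPM (8.90 to 16.3), a level that overlapped the 13.8 CPM of neutrophil-like cells. The thinned share of cells with an Igfbp5 UMI was 75.6% in pulp-like, 51.6% in follicle or ligament-like, 2.26% in odontoblast-like and 2.13% in neutrophil-like cells (92.9%, 90.3%, 19.8% and 16.5% before). Pulp-like and odontoblast-like cells, neighbours in the tooth, were thus far apart for this gene. All 5 follicle or ligament-like clusters lay between 931 and 1690.1 CPM, a narrower span than for Igf1 or Igfbp3.

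Igfbp6, which prefers IGF2, was concentrated at P25 in connective tissue fibroblast-like cells, at 2691 CPM (2608 to 2776), and was among the leading genes of that cluster. Odontoblast-like cells were next with 99.5 CPM (89.6 to 110.2) and follicle or ligament-like cells had 85.5 CPM (82.4 to 88.8). The pulp-like class had 19.0 CPM (16.4 to 21.9) and the osteoblast-like class 4.13 CPM (3.17 to 5.28). The thinned share in odontoblast-like cells was 5.08% with an interval of 2.35 to 9.43 (35.0% before, median 19016 UMIs), against 0.532% in neutrophil-like cells (3.72% before). In Cxcl12-GFP P6 no class passed 25.2 CPM, and the endothelial-like cells had 0 UMIs, which allows up to 4.16 CPM. In Cxcl12-creER P6 the connective tissue fibroblast-like class again came first with 564 CPM (481 to 657).

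Igfbp7, a low-affinity IGF binder of vessel basement membrane, was highest at P25 in endothelial-like cells, at 4805 CPM (4679 to 4933), and the 43 mural-like cells had 4891 CPM. Schwann-like cells had 2534 CPM (2374 to 2702), connective tissue fibroblast-like cells 2174 CPM and follicle or ligament-like cells 1178 CPM (1166 to 1190.0). Pulp-like cells had 252 CPM (242 to 262), odontoblast-like cells 114 CPM (104 to 126) and the osteoblast-like class 23.3 CPM (20.9 to 25.8). The mesenchyme thus split into a high ligament level, a lower pulp level and a still lower osteoblast-like level, next to 7.88 CPM in neutrophil-like cells. In Cxcl12-GFP P6 endothelial-like cells had 4247 CPM (4098 to 4400.4), and pulp-like cells at 711 CPM (697 to 725) were above follicle or ligament-like cells at 589 CPM (575 to 603), the reverse of the P25 order. That P6 difference was small (log2 0.27) and not called. It kept its direction in 6 of 9 alternative settings and was at -0.21 when doublets were not removed.

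The first comparison set pulp-like against follicle or ligament-like cells at P25, classes named from markers. The place of these cells in the tissue was not measured. Pulp-like cells had less Igf1, Igf2r, Igfbp4, Igfbp6 and Igfbp7 and more Igfbp5 than follicle or ligament-like cells, so 5 of the 9 genes were lower and 1 higher, where 8.03% and 13.4% of the 6651 genes tested were. The 9 genes had a median log2 ratio of -1.92, beside 0.25 over all genes tested. Igf1 was 9.76-fold lower (9.03 to 10.6, log2 -3.27), and it stayed lower without any single cluster, between log2 -3.90 without cluster 0 and -2.22 without cluster 1, and was at -1.57 when doublets were not removed. Igfbp7 was 4.67-fold lower (4.49 to 4.87), Igfbp6 4.50-fold lower (3.88 to 5.25) and Igf2r 3.92-fold lower (3.38 to 4.58). Igfbp4 was 4.24-fold lower (4.08 to 4.41), but log2 -2.08 became -0.84 without follicle or ligament-like cluster 1 and -0.15 when doublets were not removed. Igfbp5 was 2.21-fold higher (2.18 to 2.25), but log2 1.15 became 0.59 without pulp-like cluster 3 and 0.71 at clustering resolution 0.5. Igf1r reached log2 0.96, short of 2-fold, and 1.33 without cluster 11. Igfbp2 was at log2 0.71, and 1.45 without cluster 6. Igfbp3 was at log2 -0.65, and its direction turned with the cluster left out, from -1.95 without cluster 5 to 1.03 without cluster 1. The ameloblast markers summed to 397 CPM in pulp-like and 12.48 CPM in follicle or ligament-like cells, with 1 of 6 at zero in both, beside the mural sums given above, and their part was not tested.

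Of 49 other pathway genes, 25 could be tested in this comparison, with 7 higher and 3 lower in pulp-like cells and a median log2 ratio of 0.14. The lower ones were Htra1 and Htra3, serine proteases that cut IGF binding proteins, at 10.5 against 1504 CPM (log2 -7.04) and 13.0 against 198 CPM (-3.83), and the metalloprotease gene Adam12 (-1.54). The highest ratios were those of Foxo1, a transcription factor restrained by insulin and IGF signalling (2.18), the growth hormone receptor gene Ghr (330 against 91.6 CPM, 1.84), the PI3-kinase subunit gene Pik3r1 (1.63) and the receptor substrate gene Irs2 (1.55).

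At P6 the comparison could be repeated in Cxcl12-GFP P6, where 5 of the 9 genes were lower in pulp-like cells and 0 higher, beside 8.15% and 7.61% of 6738 genes, with a median of -1.02 beside 0.08 over all genes. Igf1 was 18.6-fold lower (17.6 to 19.8, log2 -4.20), the same direction as at P25. Igfbp5 was 7.10-fold lower (6.96 to 7.25, log2 -2.83), the opposite of P25, with 735 CPM (722 to 749) in pulp-like and 5223 CPM (5181 to 5265) in the follicle or ligament-like class. Igfbp2 was 6.62-fold lower (5.66 to 7.77). Igfbp3 (log2 -1.07) and Igfbp6 (-1.02) were just past 2-fold, and both turned without follicle or ligament-like cluster 4, to 0.44 and 0.69. Igfbp6 also turned in 4 other settings and Igfbp3 in 2, given in the closing section. Igf1r, Igf2r, Igfbp4 and Igfbp7 had log2 ratios of 0.17, -0.72, -0.88 and 0.27. In pulp-like and follicle or ligament-like cells of this library the mural markers summed to 297 and 1721 CPM (1 of 8 at zero in both) and the ameloblast markers to 289 and 83.0 CPM (0 of 6 at zero in both), and their part was not tested. Under naming by the best list with no other condition, 3 genes were called. Among 24 pathway genes 4 were higher and 6 lower (median -0.02). Foxo1 (2.67), Pik3r1 (2.21) and Ghr (1.46) were higher and Htra1 (-4.57) and Htra3 (-3.04) lower, as at P25. Stc2, whose product inhibits pappalysin, was higher in pulp-like cells at 190 against 8.50 CPM (4.33), and the matrix-bound IGF binders Ccn2 (-4.39) and Ccn1 (-1.88) were lower.

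**Figure D3:**
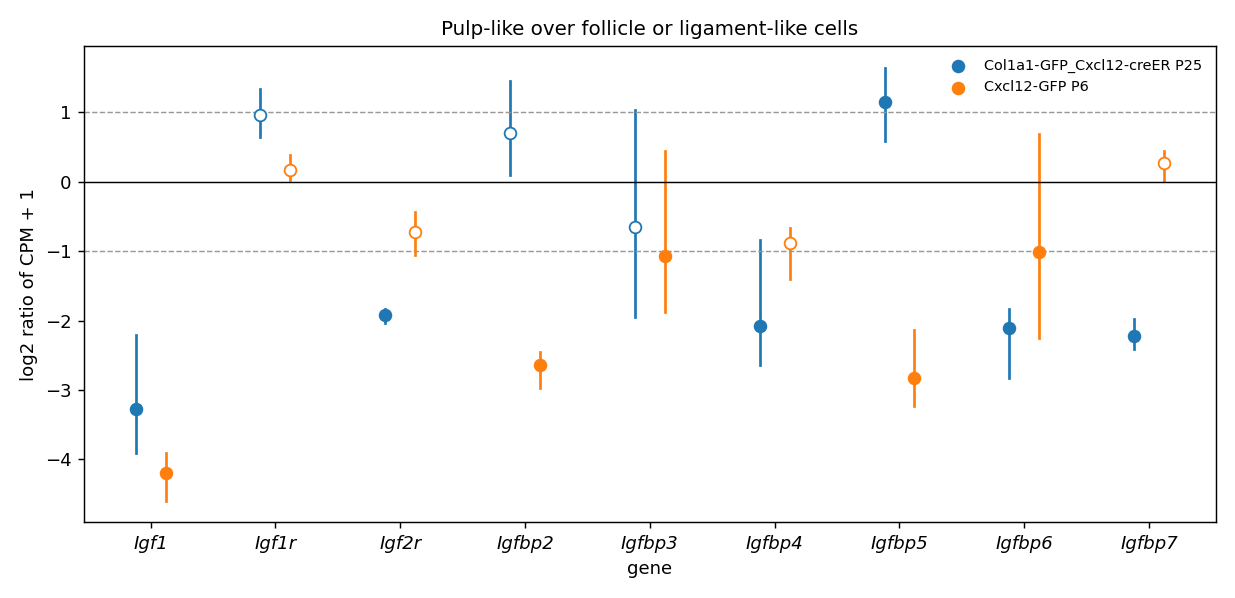
Log2 ratio (CPM + 1) of pulp-like over follicle or ligament-like cells for each gene in the P25 and Cxcl12-GFP P6 libraries; filled points are called, open points are not, vertical bars span the values with 1 cluster left out and dashed lines mark 2-fold. Igf1 lies below -3 in both libraries, and Igfbp5 lies at 1.15 in P25 and at -2.83 in Cxcl12-GFP P6.

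Osteoblast-like cells had less of nearly the whole axis than follicle or ligament-like cells at P25. Of 8 genes tested, 7 were lower and 0 higher, where 14.4% and 4.96% of 5769 genes were, and the median was -4.08 beside -0.25 over all genes. Igf1 was 61.4-fold lower (52.6 to 72.0), Igfbp7 50.7-fold (45.6 to 56.4), Igfbp3 28.5-fold (24.7 to 32.9) and Igfbp6 20.7-fold (16.1 to 27.0). Igfbp4 was 17.2-fold lower (16.2 to 18.4), Igfbp5 4.07-fold (3.94 to 4.19) and Igf1r 2.94-fold (2.68 to 3.24). Igf2r, at log2 -0.80, was the tested gene that was not called, and Igfbp2 was too low to test. Without follicle or ligament-like cluster 1 the log2 ratios of Igf1 (-5.81), Igfbp3 (-4.73) and Igfbp4 (-4.09) were -4.76, -3.04 and -2.85, and when doublets were not removed they were -3.76, -2.54 and -2.30, so all 3 stayed past 2-fold. Without osteoblast-like cluster 4 Igfbp6 (-4.08) was at -5.13 and Igfbp4 at -5.04. Mural markers summed to 92.4 CPM in osteoblast-like and 541 CPM in follicle or ligament-like cells (1 and 0 of 8 at zero) and the 7 erythroid markers to 48.1 and 368 CPM (0 at zero in both), and their part was not tested. Among 23 pathway genes 3 were higher and 7 lower (median -0.35). Stc2 (-4.03), the second ligand Igf2 (11.5 against 137 CPM, -3.47), Htra1 (-3.26) and Htra3 (-2.68) were lowest, and Ccn2 (1.45), Ccn1 (1.22) and Adam12 (1.12) were higher.

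The 2 mineral-forming classes at P25 differed in Igfbp5, Igfbp6 and Igfbp7. In odontoblast-like over osteoblast-like cells, 2 of 6 genes tested were higher and 1 lower, where 8.21% and 5.23% of 5407 genes were. Igfbp6 was 24.1-fold higher (18.4 to 32.0, log2 4.29) and Igfbp7 4.91-fold higher (4.25 to 5.67, log2 2.25) in odontoblast-like cells, while Igfbp5 was 24.4-fold lower (18.2 to 33.5, log2 -4.50). The Igfbp7 log2 ratio was 0.49 under naming by the best list with no other condition. Igf1r (0.62), Igf2r (-0.36) and Igfbp4 (0.12) were within 2-fold. The 6 genes had a median of 0.37, beside 0.18 over all genes. Of 21 pathway genes 2 were higher, Foxo3 (1.09) and Irs1 (1.02), and 5 lower (median -0.22), led by the adaptor gene Grb14 (-2.08), the growth hormone feedback gene Socs2 (-1.86), Ccn1 (-1.73) and Htra1 (-1.19).

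Between the P25 and Cxcl12-GFP P6 libraries 3 classes had at least 50 cells in both, and the genes moved differently in each. In follicle or ligament-like cells 2 of 9 genes were higher at P25 and 4 lower, where 9.27% and 16.3% of 6602 genes were, with a median of -0.53 beside -0.34. Igfbp5 was 4.32-fold lower at P25 (4.26 to 4.37, 1210.2 against 5223 CPM), at log2 -2.11 and at -1.41 without Cxcl12-GFP P6 cluster 4. Igfbp2 was 5.36-fold lower (4.81 to 5.97), at log2 -2.35, and between -3.09 without P25 cluster 6 and -1.75 without P25 cluster 0. Igf1 was 2.37-fold lower (2.33 to 2.42), at log2 -1.25, and lay between -2.30 without P25 cluster 1 and -0.61 without P25 cluster 0. Igfbp3 was 2.14-fold lower, but log2 -1.10 became 0.41 without Cxcl12-GFP P6 cluster 4. Igf2r was 2.64-fold higher (2.35 to 2.99) and Igfbp6 3.39-fold higher (3.00 to 3.84), its log2 ratio of 1.72 becoming 3.43 without Cxcl12-GFP P6 cluster 4. Igfbp7 was at log2 0.9994, just short of the call, and Igf1r (0.57) and Igfbp4 (-0.53) were within 2-fold. The mural markers summed to 541 CPM at P25 and 1721 CPM at P6 in this class, with 0 and 1 of 8 at zero, and their part in these ratios was not tested. The clusters of this class were not matched between libraries. In Cxcl12-GFP P6 cluster 4 (685 cells) scored highest for the dental follicle list and cluster 8 for the periodontal ligament list. At P25 cluster 6 scored highest for the follicle list and clusters 0, 1, 2 and 9 for the ligament list. Unnamed cluster 6 of Cxcl12-GFP P6 (472 cells) scored highest for the ligament list and stayed outside the class. The part of this naming was not tested. Of 26 pathway genes 6 were higher and 5 lower (median 0.28). Stc2 (2.88), Htra1 (2.59) and Lrp1 (1.51) were among the higher ones, and Igf2bp3 (-3.51), Igf2bp2 (-1.83), which encode RNA-binding proteins of fetal growth, Ccn1 (-1.54) and Ccn2 (-1.40) among the lower ones.

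In pulp-like cells the receptor and Igfbp5 were higher at P25. Of 7 genes tested, 2 were higher and 2 lower, where 10.3% and 8.51% of 6935 genes were, with a median of -0.31 beside -0.17. Igf1r was 2.59-fold higher (2.41 to 2.80, 193 against 74.5 CPM) and Igfbp5 3.64-fold higher (3.56 to 3.73, 2679 against 735 CPM). Igfbp4 was 3.32-fold lower (3.18 to 3.46) and Igfbp7 2.82-fold lower (2.70 to 2.95). The Igfbp4 log2 ratio of -1.73 became -0.66 when doublets were not removed. Igf1 (-0.31), Igfbp2 (0.99) and Igfbp3 (-0.68) were within 2-fold, but all 3 moved with the settings. Igf1 ran from -1.15 under naming by the best list alone to 0.63 when doublets were not removed. Igfbp2 ran from 0.10 under that naming to 1.44 with at least 1000 genes per cell. Igfbp3 ran from -2.05 under that naming to 0.33 at clustering resolution 2.0. The mural markers summed to 117 CPM at P25 and 297 CPM at P6, and the 6 ameloblast markers to 397 and 289 CPM, and their part was not tested. The clusters of this class were not matched between libraries. Cluster 0 of Cxcl12-GFP P6 scored highest for the apical papilla list, and every P25 cluster for the coronal papilla or pulp list. Most Col9a1-high clusters of Cxcl12-GFP P6 had the coronal list second and stayed outside the class. The part of this naming was not tested. Of 23 pathway genes 5 were higher, among them Ccn2 (3.66), Irs2 (2.36) and Igf2 (265 against 60.8 CPM, 2.11), and 3 lower, namely Igf2bp3 (-2.50), Stc2 (-2.03) and Foxo1 (-1.33), with a median of 0.58.

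In endothelial-like cells, 1 cluster in each library, 4 of 8 genes were higher at P25 and 1 lower, where 17.4% and 10.1% of 6786 genes were, with a median of 0.83 beside 0.04. Igfbp3 was 4.44-fold lower at P25 (4.06 to 4.87, 557 against 2476 CPM). Igfbp5 was 6.73-fold higher (5.34 to 8.57, 746 against 111 CPM), Igf2r 2.80-fold higher (1.71 to 4.80), Igf1 2.40-fold higher (1.68 to 3.51) and Igfbp2 2.12-fold higher with an interval that includes 1 (0.939 to 5.41). Igfbp7 was within 2-fold (log2 0.18), as were Igf1r (0.25) and Igfbp4 (0.63). Without doublet removal 3 genes were called, Igf1 and Igfbp2 falling to log2 0.77 and 0.65 and Igfbp5 to 1.38 from 2.74. The mural markers summed to 499.7 CPM at P25 with 0 of 8 at zero and to 52.7 CPM at P6 with 2 at zero, and the macrophage markers to 90.7 and 8.31 CPM with 0 and 5 of 8 at zero, and their part in these ratios was not tested. The endothelial markers themselves summed to 8327 and 5820.1 CPM. Of 25 pathway genes 9 were higher and 5 lower (median 0.53), with Ccn2 (3.90), the insulin receptor gene Insr (2.50) and Adam12 (1.42) among the higher and Igf2bp3 (-4.00), Ccn1 (-2.16), Ghr (-1.72) and Htra1 (-1.60) lowest.

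**Figure D4:**
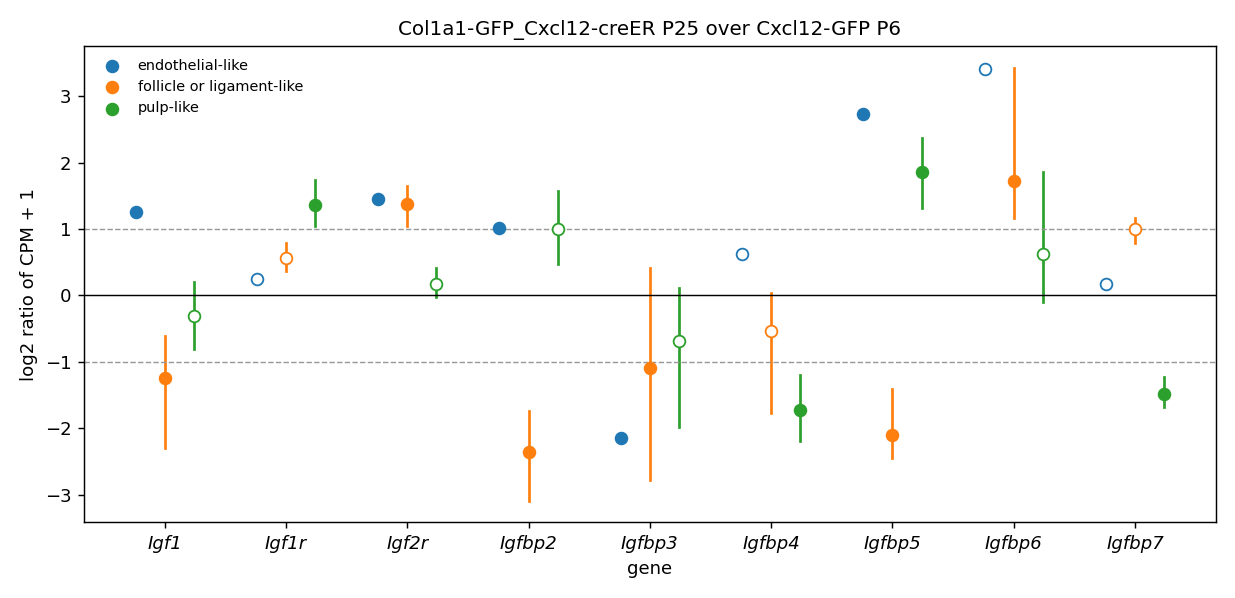
Log2 ratio (CPM + 1) of the P25 over the Cxcl12-GFP P6 library for each gene in endothelial-like, follicle or ligament-like and pulp-like cells; filled points are called, open points are not, vertical bars span the values with 1 cluster left out (none for endothelial-like cells, 1 cluster each) and dashed lines mark 2-fold. Igfbp5 lies above 1 in endothelial-like and pulp-like cells and below -2 in follicle or ligament-like cells; the open endothelial-like point of Igfbp6 is set against 0 UMIs at P6.

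Against the shallower Cxcl12-creER P6 library, 3 of the shared mesenchymal classes are described. In connective tissue fibroblast-like cells 2 of 8 genes were higher at P25 and 3 lower, where 18.1% and 5.29% of 4725 genes were, with a median of 0.07 beside 0.25. Igf1 was 3.90-fold lower at P25 (3.50 to 4.34, 536 against 2089.7 CPM) and Igf2r was at log2 -1.65. Igfbp6 was 4.77-fold higher (4.08 to 5.62, 2691 against 564 CPM). Igfbp3 (log2 -1.11) became 0.66 without cluster 15 of Cxcl12-creER P6, and Igfbp7 (1.09) became 0.86 without its cluster 13 and 3.75 without cluster 15. The 6 ameloblast markers summed to 6.07 CPM at P25 with 3 at zero and to 736 CPM at P6, and their part was not tested. Of 20 pathway genes 8 were higher and 3 lower, the lower ones being Igf2 (105 against 2199.7 CPM, -4.38), Ccn3 (-2.65) and Grb10 (-1.62). Prlr (3.08), Ccn1 (2.63) and Ccn2 (2.45) were higher, and Jak2, the kinase of the growth hormone receptor, was at least 2.48-fold higher against 0 UMIs (3 counts over the class as the floor). The median of 0.79 is the same with Jak2 at that bound.

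Against Cxcl12-creER P6, 1 of 8 genes was higher and 3 were lower in follicle or ligament-like cells, where 7.85% and 11.3% of 5671 genes were, with a median of -0.78 beside -0.12. Igfbp5 was 8.37-fold lower at P25 (8.15 to 8.59), and log2 -3.06 became -0.05 without cluster 24 of Cxcl12-creER P6, whose 16 cells held 95.01% of that class's Igfbp5 UMIs. Igf1 (log2 -1.12) became 1.24 without the same 16 cells, and Igfbp3 (-1.14) became -0.41 without cluster 20 and -2.83 without P25 cluster 1. At a limit of 10% mitochondrial UMIs Igf1 was at 1.53 and Igfbp5 at -0.11. Ameloblast markers summed to 12.48 CPM at P25 and 799 CPM at P6 (1 and 2 of 6 at zero) and mural markers to 541 and 1180.4 CPM (0 and 2 of 8), and their part was not tested. Clusters 20 and 24 of Cxcl12-creER P6 scored highest for the dental follicle list and clusters 4 and 25 for the periodontal ligament list. The part of this naming was not tested either. Igfbp7 was 2.91-fold higher (2.58 to 3.29). The count of called genes ran from 2 to 5 with 1 cluster left out. Of 26 pathway genes 5 were higher and 5 lower (median 0.16), with Stc2 (3.31), Htra1 (3.13) and Pik3r1 (1.71) among the higher and Igf2 (-2.15), Ccn2 (-1.72) and Gab1 (-1.66) among the lower.

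In osteoblast-like cells 4 genes could be tested, of which 3 were lower at P25 and 0 higher, where 11.5% and 15.1% of 3271 genes were, with a median of -2.81 beside 0.09. Igf1 was 15.1-fold lower (10.5 to 21.2), but log2 -3.79 became 0.10 without cluster 8 of Cxcl12-creER P6. Igfbp7 was 10.1-fold lower (7.63 to 13.3), at log2 -3.29 and at -1.53 under naming by the best list alone, and Igfbp4 was at log2 -2.33. With no filter on low counts 5 genes were called. Here the ameloblast markers summed to 8.45 CPM at P25 and 737 CPM at P6 (3 of 6 at zero in both) and the mural markers to 92.4 and 370.5 CPM (1 and 2 of 8 at zero), and their part was not tested. Of 17 pathway genes 5 were higher and 3 lower (median 0.28, the same with Ccn2 at its bound). Igf2 (-4.46), Grb10 (-1.79) and Htra3 (-1.43) were lower, and Ccn1 (4.19), Socs2 (2.48) and Irs2 (1.58) were higher, with Ccn2 at least 28.2-fold higher against 0 UMIs. Igf2 was thus lower at P25 than in Cxcl12-creER P6 in all 3 of these classes, at 11.5 to 137 CPM. In follicle or ligament-like cells Igf2 was also lower in Cxcl12-GFP P6 than in Cxcl12-creER P6. In pulp-like cells it was higher at P25 than in Cxcl12-GFP P6. Epithelium-like cells, whose clusters in the P6 library were of unlike kinds, had 4 of 8 genes higher at P25 and 1 lower, where 55% and 8.24% of 6094 genes were, so that the count lay near the background. The median was 1.17 beside 1.13 over all genes. The 6 ameloblast markers summed to 3005 CPM at P25 and 512245 CPM at P6 in epithelium-like cells, and their part was not tested.

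The P6 libraries share an age but differ in genotype, mark and depth, and with 1 library each these cannot be told apart. They could be compared in 2 classes. In Col9a1-high mesenchymal cells, clusters that scored highest for the chondrocyte list with Col2a1 below the set limit, 3 of 8 genes were lower in Cxcl12-GFP P6 and 0 higher, where 9.6% and 11.9% of 5856 genes were (median -0.34 beside 0.25). These were Igf1r (log2 -1.13, -0.67 without cluster 2 of Cxcl12-creER P6), Igf2r (-1.17, 4.48 without cluster 2) and Igfbp2 (-1.37, 2.42 without cluster 21), so each of the 3 calls was lost with 1 cluster left out. The count was 5 at a limit of 10% mitochondrial UMIs and without doublet removal. In follicle or ligament-like cells 3 of 9 genes were lower and 1 higher, where 10.7% and 10.8% of 6198 genes were (median -0.04 beside 0.23). Igfbp6 was 6.77-fold lower in Cxcl12-GFP P6 (5.39 to 8.45), but log2 -2.71 became -0.29 without cluster 25 of Cxcl12-creER P6. Igf2r was 3.38-fold lower, and Igfbp2 was 4.04-fold higher (2.40 to 7.42), with log2 1.97 becoming 0.58 at a limit of 10% mitochondrial UMIs. Igf1r (-1.15) became 0.06 without cluster 24. Ameloblast markers summed in Cxcl12-GFP P6 and Cxcl12-creER P6 to 199 and 1046.5 CPM in Col9a1-high cells and to 83.0 and 799 CPM in follicle or ligament-like cells, and their part was not tested. Of 24 pathway genes 2 were higher in Cxcl12-GFP P6, Ccn1 (2.18) and Igf2bp3 (1.86), and 5 lower, among them Igf2 (-2.37) and Jak2 (-1.67), with a median of -0.26. Of 17 in Col9a1-high cells 4 were higher, among them Ccn1 (3.17) and Igf2bp3 (2.45), and 2 lower, among them Igf2 (-1.83), with a median of 0.05.

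The genes whose levels ran most alike were taken over the 11 P25 classes of at least 50 cells, by Pearson's r of log2(CPM + 1) among 2840 variable genes. These values are descriptions: the classes share 1 library, its depth and its free RNA, and with 11 points and so many genes high values are common. For Igf1 they were Gas6 (0.914), Rnase4 (0.898) and Lima1 (0.877), though Gas6 itself was highest in macrophage-like cells. For Igf1r they were Ttll5 (0.8996), Serinc5 (0.896) and Pam (0.868), and for Igf2r Ntn1 (0.937), Mustn1 (0.901) and Sntb2 (0.891). Igfbp2 ran with Hif1a (0.935), Cdh3 (0.904) and Ttll7 (0.902), all highest in epithelium-like cells. Igfbp3 ran with Fmo1 (0.910), Tspan9 (0.897) and Phldb2 (0.895), and Igfbp7 with Lamb1 (0.966), Map4k5 (0.966) and Ehd2 (0.949). The partners of the 3 fibroblast-led binding proteins were each highest in connective tissue fibroblast-like cells: Anpep (0.939), Hic1 (0.893) and Gdf10 (0.888) for Igfbp4, Kcnj8 (0.931), Prelp (0.919) and C1ra (0.895) for Igfbp5, and Cd248 (0.915), Arhgap20 (0.913) and Svep1 (0.906) for Igfbp6.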

How the data were processed

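The authors deposited 1 matrix of UMI counts per library, made per the submitters' processing notes with Cell Ranger on mm10 (per the file headers version 3.1.0 in the P25 library and 6.0.0 in Cxcl12-creER P6; not given for Cxcl12-GFP P6). About 10000 cells were loaded per the labels' protocols, which name 3′ v3 chemistry for all libraries, though the barcodes of Cxcl12-GFP P6 differ. Cells were kept from 500 genes upward if mitochondrial UMIs made up 15% or less. Doublets were removed by scores against 2 simulated doublets per cell, at 0.8% per 1000 cells: 452, 10 and 256 cells in Cxcl12-GFP P6, Cxcl12-creER P6 and P25. The 9 genes and 49 pathway genes were left out of the 2000 variable genes, which gave 30 components, 15 neighbours and Leiden clusters at resolution 1.0. Clusters were named from 23 marker lists by their mean log2 ratio to the other clusters (at least 2.0, with a lead of 0.4 and 3 markers 1.5-fold up in 10% of cells). The name Col9a1-high mesenchymal stands for a chondrocyte-led cluster whose Col2a1 level was below 1000 CPM. A rebuilt class may differ from the authors'.

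CPM used the 27040 shared genes. CPM intervals are exact Poisson, those of shares exact binomial, and those of ratios exact conditional binomial. PCR is accounted for by UMIs, so intervals cover counting error only. A ratio was called at 2-fold with 20 CPM and 20 UMIs on the higher side, for classes of at least 50 cells. In thinning to 1000 UMIs, 1 cell each was left out of the lymphocyte-like, osteoblast-like, epithelium-like and Schwann-like classes at P25. Pathway genes named are those called with the 4 highest and 4 lowest ratios, and genes alike are the 3 with the highest r. The values of 1 pathway gene are not reported here. The genes and lists were chosen with earlier results of these data known, and the naming thresholds after the clusters had been seen. Code was tested on simulated data. Alternatives are in the closing section. Clustering used leidenalg 0.10.2 with igraph 0.11.9 and scikit-learn 1.9.0, statistics used scipy 1.17.1, tables used pandas 2.3.3 with numpy 2.4.6, and plots used matplotlib 3.10.9, all in Python 3.11.15. Locations came from GENCODE M21 and promoters from RefSeq (GRCm38.p6). Protein sequences were not used here.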

Additional observations from a re-analysis of the deposited data

Results flagged for a closer look

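Some of the 9 genes were called in opposite directions by the same contrast in different libraries or classes. With 1 library per group, none of these differences was tested. Pulp-like over follicle or ligament-like, the log2 ratio of Igfbp5 was 1.15 in the P25 library and -2.83 in Cxcl12-GFP P6.

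For P25 over Cxcl12-GFP P6, Igf1 was at 1.25 in endothelial-like and -1.25 in follicle or ligament-like cells. Igfbp2 was at 1.02 in endothelial-like and -2.35 in follicle or ligament-like cells. Igfbp5 was at 2.74 in endothelial-like, 1.86 in pulp-like and -2.11 in follicle or ligament-like cells.

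For P25 over Cxcl12-creER P6, Igf1 was at -1.96 in connective tissue fibroblast-like, -1.12 in follicle or ligament-like, -3.79 in osteoblast-like and 2.08 in epithelium-like cells. Igfbp3 was at -1.11 in connective tissue fibroblast-like, -1.14 in follicle or ligament-like and 3.55 in epithelium-like cells. Igfbp7 was at 1.09 in connective tissue fibroblast-like, 1.54 in follicle or ligament-like, 4.69 in epithelium-like and -3.29 in osteoblast-like cells. The epithelium-like class of Cxcl12-creER P6 had an ameloblast-led and a keratin-led cluster, and 55% of 6094 genes were higher at P25 there. Its ameloblast markers summed to 512245 CPM, against 3005 CPM at P25. For Cxcl12-GFP P6 over Cxcl12-creER P6, Igfbp2 was at -1.37 in Col9a1-high mesenchymal and 1.97 in follicle or ligament-like cells.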

How the results depend on the processing

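Of 60 called ratios of the 9 genes, 53 kept their direction and 38 also stayed past 2-fold under every alternative that gave a value. Of the 55 that involve a class of more than 1 cluster, 43 kept their direction and 34 stayed past 2-fold without any 1 cluster, a check added after seeing the data. In all, 8 of the 9 genes reached 100 CPM in a P25 class in the main analysis and in every alternative. No odontoblast-like class was left at 10% mitochondrial UMIs, and classes left under 50 cells gave no value. No paired analysis was possible because each group is 1 library. Depth limits the Cxcl12-creER P6 library most (median 1459 UMIs). Where a value changed, the cause was not tested.

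With at most 10% mitochondrial UMIs the log2 ratio turned for Igf1 in follicle or ligament-like cells, P25 over Cxcl12-creER P6 (1.53), for Igfbp3 in the same class, P25 over Cxcl12-GFP P6 (0.23), and for Igfbp3 (0.46) and Igfbp6 (0.65), pulp-like over follicle or ligament-like in Cxcl12-GFP P6. With the 9 genes kept in the clustering these last 3 were 0.098, 0.39 and 0.83. With at least 1000 genes per cell the Igfbp3 ratio over Cxcl12-GFP P6 was 0.29 and that of Igfbp6 0.19, and without doublet removal Igfbp6 was 0.28. With cells weighted equally, P25 over Cxcl12-creER P6 gave Igf1 at -1.32 in epithelium-like and 0.026 in follicle or ligament-like cells, and Igfbp3 at 0.13 in connective tissue fibroblast-like cells. At resolution 2.0 Igfbp2 in Col9a1-high cells was at 2.44. The count of called genes was 3 in place of 5 in endothelial-like cells without doublet removal and in Cxcl12-GFP P6 pulp-like cells under naming by best list alone. It was 5 in place of 3 in osteoblast-like cells with no filter, and in Col9a1-high cells at 10% mitochondrial UMIs or without doublet removal.

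With 1 cluster left out, P25 over Cxcl12-creER P6 ran for Igf1 from -0.96 to 3.69 in epithelium-like, -2.17 to 1.24 in follicle or ligament-like and -5.77 to 0.10 in osteoblast-like cells. It ran for Igfbp3 from -1.31 to 0.66 in connective tissue fibroblast-like cells, and in epithelium-like cells for Igfbp5 from -4.61 to 2.92 and for Igfbp6 from -0.21 to 4.13. Igfbp3 in follicle or ligament-like cells, P25 over Cxcl12-GFP P6, ran from -2.78 to 0.41. Pulp-like over follicle or ligament-like in Cxcl12-GFP P6 ran from -1.87 to 0.44 for Igfbp3 and -2.25 to 0.69 for Igfbp6. Cxcl12-GFP P6 over Cxcl12-creER P6 ran from -1.37 to 0.056 for Igf1r in follicle or ligament-like cells, and in Col9a1-high cells from -1.26 to 4.48 for Igf2r and -5.83 to 2.42 for Igfbp2. The count of called genes ran from 2 to 5 in follicle or ligament-like cells, P25 over Cxcl12-creER P6, and from 3 to 6 for pulp-like cells of Cxcl12-GFP P6.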
